A study of Mus musculus with 6 samples.

Results

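The genes described here are 10 mouse genes of mitochondrial fusion and fission, chosen by symbol: Mfn1, Mfn2, Opa1, Oma1, Yme1l1, Dnm1l, Mff, Fis1, Mtfr1 and Gdap1. All 10 were found among the 17710 genes listed in any of the 6 libraries. The study compared 2 kinds of cultured mouse cell under normal conditions, without feeder cells. Embryonic stem (ES) cells, the pluripotent cells of the early embryo, were of strain 129/Ola and grew on gelatin in N2B27 medium with 2iLIF. Extraembryonic endoderm (XEN) cells, a model of the yolk sac lineage, came from strain ICR and the medium was RPMI1640 plus 15% fetal bovine serum, glutamine (Glut in the labels) and BME. Each group held 3 libraries, A, B and C, made from total RNA and read on a BGISEQ-500. Whether the 3 libraries of a group were grown separately is not in the labels, and the p-values therefore cover the spread of these libraries alone, which may be technical. The groups differ in strain and medium as well as in cell type, and these cannot be told apart.

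Mitochondria fuse and divide continually. MFN1 and MFN2, the mitofusins, are GTPases that join outer membranes, and OPA1 is the GTPase that joins inner membranes and shapes cristae. Division is driven by DRP1, the GTPase encoded by Dnm1l, which is recruited to the outer membrane by adaptors such as MFF. Pluripotent stem cells are known for small, rounded mitochondria with few cristae.

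The 6 libraries held 20675311 to 22375875 expected counts in total, and 3 counts were 0.134 to 0.145 CPM (counts relative to the library total) before composition factors. The markers of each cell type matched the labels. The summed level of 5 ES markers was 2129 to 2169 FPKM (fragments per kilobase of transcript, scaled to library depth) in ES libraries and 0.62 to 0.90 in XEN libraries. For 6 XEN markers the sum was 1.34 to 1.48 FPKM in ES and 1217 to 1284 in XEN libraries. Among markers of other cell types, 6 trophoblast genes summed to 28.2 to 29.7 FPKM in ES and 2.45 to 2.87 in XEN libraries, mostly Tfap2c in ES and Eomes in XEN libraries. The 4 neural genes summed to 44.4 to 47.0 and 1.92 to 3.71 FPKM, nearly all of it Tubb3. The 6 fibroblast or feeder genes stayed between 1.72 and 1.99 FPKM in ES and between 0.11 and 0.21 in XEN libraries, with Lum not listed in any library. The 4 mesoderm genes summed to 4.03 to 5.21 and 0.92 to 1.10 FPKM.

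Of the 10 genes, 9 had enough counts to be tested. In XEN cells Mfn2, Opa1 and Fis1 rose, Mfn1, Oma1, Mff and Mtfr1 fell, and Dnm1l and Yme1l1 were not called by the edgeR quasi-likelihood test with Benjamini-Hochberg adjustment over all genes at 0.05. The 7 called genes are to be read against 88.7% of all 13581 tested genes called in either direction (42.0% of all tested genes higher and 46.7% lower in XEN cells). In CPM the groups did not overlap for 8 of the 9 genes, all but Dnm1l, beside 89.4% of all tested genes. In these bulk samples, fewer cells of a type and less RNA per cell cannot be told apart. The changes of these genes were of moderate size. Their median absolute log2 fold change was 0.69, beside 0.92 over all tested genes, and none of the 9 passed the test against a change of 2-fold (edgeR glmTreat), which 42.7% of all tested genes passed. Fold changes are XEN over ES throughout. Errors are the SD over 3 libraries for levels and the standard error for log2 fold changes.

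**Figure D1:**
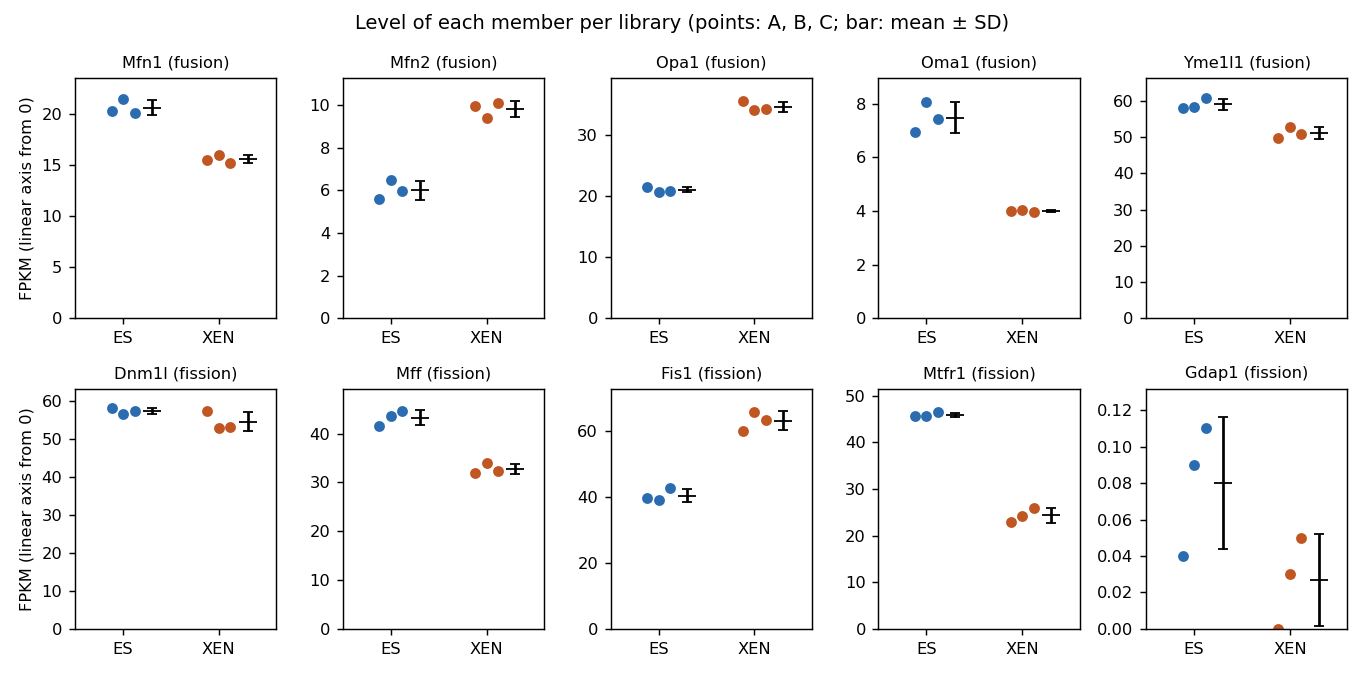
FPKM of each of the 10 genes (linear vertical axis from 0, scaled per gene) in ES (blue) and XEN (orange) libraries A, B and C from left to right, with the mean ± SD in black. Mfn2, Opa1 and Fis1 sit higher in all XEN libraries, 5 genes sit lower, and the groups overlap for Dnm1l and Gdap1.

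The mitofusins moved in opposite directions. Mfn2, which also tethers mitochondria to the endoplasmic reticulum, was at 5.60, 6.47 and 5.95 FPKM in ES libraries A, B and C and at 9.97, 9.40 and 10.09 FPKM in XEN libraries A, B and C. Every XEN library lay above every ES library. In CPM, Mfn2 rose from 25.1 ± 1.83 to 45 ± 1.87 (n = 3 per group), a log2 fold change of 0.84 ± 0.07 (edgeR adjusted p = 2.92e-11). Mfn1, the mitofusin with the more efficient tethering activity, was at 20.28, 21.44 and 20.09 FPKM in ES and at 15.54, 15.96 and 15.22 FPKM in XEN libraries. All XEN libraries lay below all ES libraries, and Mfn1 fell by 0.27 ± 0.03 on the log2 scale (edgeR adjusted p = 5.98e-06). Mfn1 was the only one of these genes whose expected counts were not whole numbers, so some of its reads were shared with another gene model by the authors' counting.

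Opa1, the inner membrane fusion GTPase, was higher in XEN cells. Its level was 21.49, 20.73 and 20.92 FPKM in ES and 35.64, 34.15 and 34.27 FPKM in XEN libraries, a ratio of means of 1.65. The XEN libraries all lay above the ES libraries. In CPM it rose from 95 ± 0.329 to 164 ± 4.33, with a log2 fold change of 0.78 ± 0.02 (edgeR adjusted p = 6.14e-14).

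OMA1 and YME1L1 are the inner membrane proteases that cut OPA1 from its long into its short forms, OMA1 mainly under stress. Oma1 was at 6.93, 8.07 and 7.41 FPKM in ES and at 3.98, 4.05 and 3.97 FPKM in XEN libraries. The groups did not overlap, and the 3 XEN libraries were nearly equal. Oma1 fell by 0.76 ± 0.06 on the log2 scale (12.6 ± 0.97 CPM in ES and 7.46 ± 0.102 CPM in XEN libraries, edgeR adjusted p = 2.54e-07). Yme1l1 was among the most abundant of the 10 genes, at 58.00, 58.43 and 60.72 FPKM in ES and 49.62, 52.79 and 50.95 FPKM in XEN libraries. These values do not overlap, but the log2 fold change was only -0.08 ± 0.03 and was not called (edgeR adjusted p = 0.0682). The Yme1l1 log2 fold change passed the threshold under 8 of 18 alternatives, each time as lower in XEN cells, among them the fit without XEN library B (edgeR adjusted p = 0.0411).

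Promoter windows of RefSeq (build GRCm38.p6, 250 bases before to 50 after a start site) were matched for 8 of the 10 genes, with 13 windows in all; Mtfr1 and Gdap1 were not matched. The genes were mapped by the authors on mm9, so these windows are given for their sequence only. Each was searched on both strands, with overlapping matches counted, for GCGC, any base, TGCGC (bound by NRF1), CCGGAAG (ETS factors), AAGATGGC (YY1), CACGTG (E-box) and GGGCGG (SP1). Among all 32851 windows of the same length, 4.60%, 8.86%, 2.75%, 7.15% and 35.7% held these letters, in that order. The NRF1 letters were found in 2 windows, those of Opa1 and Oma1, which moved in opposite directions and are shown for that reason, with all matches in capitals. The ETS letters were found in 5 of 13 windows, from 4 genes, and the SP1 letters in 11 of 13, from 8 genes. The YY1 or E-box letters were in 0 of 13 windows. Some windows of Mff and of Mfn2 overlap, so the 13 windows are not independent. A match is a description of the sequence and says nothing of binding in these cells.
Opa1, chr16:29579084-29579383, + strand: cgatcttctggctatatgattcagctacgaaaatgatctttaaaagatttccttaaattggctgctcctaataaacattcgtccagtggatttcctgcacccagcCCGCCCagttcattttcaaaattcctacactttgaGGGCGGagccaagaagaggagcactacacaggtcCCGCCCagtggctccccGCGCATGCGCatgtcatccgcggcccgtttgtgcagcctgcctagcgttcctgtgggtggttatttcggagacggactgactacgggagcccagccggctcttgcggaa
Oma1, chr4:103313596-103313895, + strand: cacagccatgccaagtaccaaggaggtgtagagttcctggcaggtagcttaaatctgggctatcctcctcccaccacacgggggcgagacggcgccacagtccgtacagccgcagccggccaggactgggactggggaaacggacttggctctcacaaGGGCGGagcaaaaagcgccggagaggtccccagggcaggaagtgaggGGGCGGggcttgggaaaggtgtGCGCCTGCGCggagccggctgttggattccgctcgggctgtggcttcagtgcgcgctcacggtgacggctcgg

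Among the fission genes, Dnm1l itself was not called. It was at 57.97, 56.50 and 57.38 FPKM in ES and at 57.31, 52.87 and 53.07 FPKM in XEN libraries, so that XEN library A lay within the ES range. Its log2 fold change was 0.05 ± 0.04 (edgeR adjusted p = 0.295). The sign depended on the scaling: the log2 fold change was -0.10 with upper-quartile factors (edgeR adjusted p = 0.0208) and -0.09 without composition factors (edgeR adjusted p = 0.045), 2 settings in which the difference passed as lower.

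MFF and FIS1 are outer membrane proteins, MFF the main adaptor of DRP1 and FIS1 a small tail-anchored protein with a debated part in fission in mammals. Their genes moved apart. Fis1 was at 39.52, 38.95 and 42.57 FPKM in ES and at 59.97, 65.69 and 63.36 FPKM in XEN libraries. All XEN libraries lay above all ES libraries, and Fis1 rose from 28.8 ± 1.32 to 46.4 ± 1.9 CPM, a log2 fold change of 0.69 ± 0.05 (edgeR adjusted p = 1.91e-10). Mff was at 41.55, 43.56 and 44.66 FPKM in ES and at 31.94, 34.03 and 32.40 FPKM in XEN libraries. The groups did not overlap, and Mff fell by 0.23 ± 0.04 on the log2 scale (edgeR adjusted p = 0.000105).

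Mtfr1, a mitochondrial fission regulator, was at 45.70, 45.53 and 46.38 FPKM in ES and at 22.81, 24.29 and 25.96 FPKM in XEN libraries. Every XEN library was far below the ES libraries, and Mtfr1 fell by 0.77 ± 0.05 on the log2 scale (edgeR adjusted p = 1.48e-12). Gdap1, an outer membrane protein known from the peripheral nerve disease Charcot-Marie-Tooth, was near absent in both cell types. It had 3, 8 and 9 counts in ES libraries A, B and C and 0, 3 and 4 in XEN libraries A, B and C, and was below the filter on low counts. Summed over the groups, there were 20 and 7 counts. Relative to the library totals with composition factors, the ratio of XEN to ES was 0.377. Its exact (Clopper-Pearson) 95% interval of 0.135 to 0.927 covers counting error only. In the fit without a filter Gdap1 was not called (edgeR adjusted p = 0.0723).

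**Figure D2:**
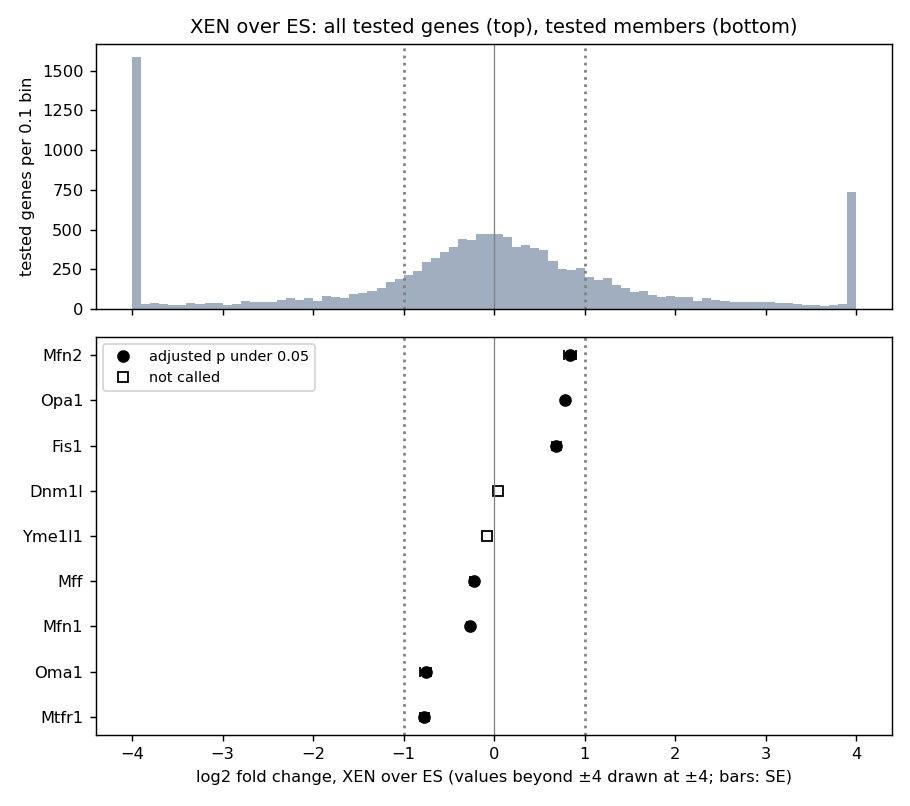
Log2 fold change of XEN over ES for all 13581 tested genes (top, number of genes per bin; values beyond ±4 are drawn at ±4) and for the 9 tested fusion and fission genes with their SE (bottom; filled for adjusted p under 0.05, open for not called). All 9 lie inside the dotted lines of a 2-fold change, from -0.77 for Mtfr1 to 0.84 for Mfn2.

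Per length, the order of the genes differed between the cell types. In ES cells the order from high to low was Yme1l1, Dnm1l, Mtfr1, Mff, Fis1, Opa1, Mfn1, Oma1, Mfn2 and Gdap1, with mean levels of 59.05 ± 1.46 FPKM for Yme1l1 and 6.01 ± 0.438 for Mfn2. The libraries overlapped between Mff and Fis1 and between Opa1 and Mfn1, while each other gene was separated from the next. In XEN cells the order was Fis1, Dnm1l, Yme1l1, Opa1, Mff, Mtfr1, Mfn1, Mfn2, Oma1 and Gdap1, and no neighbours overlapped. Fis1 took the fifth place in ES cells at 40.3 ± 1.95 FPKM and led in XEN cells at 63.0 ± 2.88 FPKM, and Mtfr1 went from the third to the sixth place. The 5 genes grouped under fusion are the GTPase genes Mfn1, Mfn2 and Opa1 and the protease genes Oma1 and Yme1l1. Their summed level was 114 ± 1.63 FPKM in ES and 115 ± 1 FPKM in XEN libraries. Yme1l1 gave the largest part, 59.05 FPKM in ES and 51.12 FPKM in XEN libraries. Within this sum Mfn2 and Opa1 rose while Mfn1 and Oma1 fell. The 5 fission genes (Dnm1l, Mff, Fis1, Mtfr1 and Gdap1) summed to 187 ± 3.69 and 175 ± 2.45 FPKM. These FPKM sums carry no composition factors. On the log2(FPKM + 1) scale the log2 fold changes of all genes shifted by a median of -0.123 from the main fit. Whether the sums differ between the cell types beyond that shift was not tested.

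The ratio of a pair of genes within a library does not depend on how libraries are scaled, so 4 pairs were compared by the ratio of their FPKM. Mfn1 was 3.31 to 3.62 times as high as Mfn2 in ES libraries and 1.51 to 1.70 times in XEN libraries. The log2 ratio changed by -1.11 ± 0.06. Mff was 1.05 to 1.12 times as high as Fis1 in ES libraries and 0.511 to 0.533 times in XEN libraries, a change of -1.04 ± 0.03, so that the more abundant of these outer membrane proteins' transcripts was Mff in all ES and Fis1 in all XEN libraries. Dnm1l was 2.70 to 2.74 times as high as Opa1 in ES libraries and 1.55 to 1.61 times as high in XEN libraries, a change of -0.80 ± 0.02. The ratio of Oma1 to Yme1l1 was low in both, at 0.119 to 0.138 in the ES libraries and between 0.0767 and 0.0802 in the XEN libraries, a change of -0.69 ± 0.07. For each pair the groups did not overlap and the two-sided exact permutation p = 0.1, also when adjusted over the 4 pairs, the lowest value that the 20 ways to divide 6 libraries into groups of 3 can give. The pairs share the members tested above and are no separate evidence. A ratio of FPKM also depends on the transcript lengths that FPKM divides by. In XEN libraries the mean length differed from ES by 2.89% for Mff, -4.61% for Fis1, -4.48% for Opa1 and -0.78% for Dnm1l. The part of length in these ratios was not tested.

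**Figure D3:**
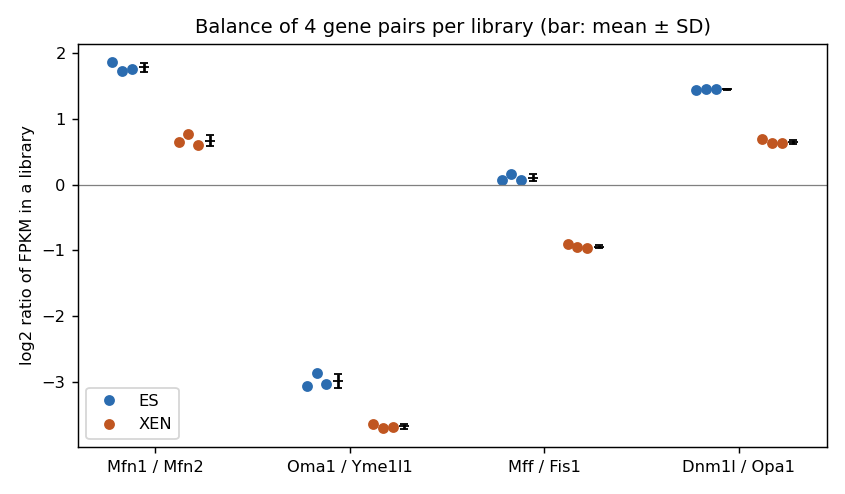
Log2 ratio of FPKM for 4 gene pairs within each library (vertical axis; 0 is equal levels), with ES libraries in blue, XEN libraries in orange and the mean ± SD in black. All 4 ratios are lower in XEN libraries, and that of Mff to Fis1 lies above 0 in ES and below 0 in XEN libraries.

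The deposited length of a gene can carry information on its mix of transcripts. The labels do not define this column. It was read here as the mean length of a gene's transcripts weighted by their abundance, as RSEM writes it, because among genes listed in every library the length was not whole in 5987 of 6434 genes with several transcripts and in 0 of 6338 genes with a single one. Of the 10 genes, 7 had several transcripts. The length differed without overlap between the groups for 4 of these 7, Opa1, Fis1, Mff and Dnm1l, beside 41.3% of 4952 genes with several transcripts and at least 1 FPKM in every library. The median absolute difference was 0.978% of the length over the 7 genes and 0.287% over the 4952. For these 4 genes the two-sided exact permutation p = 0.1, the smallest possible here, and adjusted over the 7 genes p = 0.175.

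Fis1 transcripts were shorter in XEN cells. Their mean length was 853.91, 853.49 and 847.61 bases in ES libraries A, B and C and 814.15, 811.89 and 811.08 bases in XEN libraries A, B and C, a difference of -39.3 bases. The files list 3 RefSeq transcripts for Fis1. Of these, 2 have a counterpart in GENCODE M21, 1 of 948 bases from an upstream start site and 1 of 786 bases from a downstream one. The mean length lay between these 2 lengths in all 6 libraries. Deposited lengths need not equal those of GENCODE M21: Mfn1, with 1 transcript, had 4531 bases in the former and 4562 in the latter. Which of the 3 transcripts differed in share cannot be computed from a mean length alone. Both start sites have a RefSeq window, shown here because these 2 of the 3 transcripts differ in their start; capitals mark the ETS and SP1 letters, the overlapping SP1 matches in the downstream window running together.
Fis1 upstream start, chr5:136953025-136953324, + strand: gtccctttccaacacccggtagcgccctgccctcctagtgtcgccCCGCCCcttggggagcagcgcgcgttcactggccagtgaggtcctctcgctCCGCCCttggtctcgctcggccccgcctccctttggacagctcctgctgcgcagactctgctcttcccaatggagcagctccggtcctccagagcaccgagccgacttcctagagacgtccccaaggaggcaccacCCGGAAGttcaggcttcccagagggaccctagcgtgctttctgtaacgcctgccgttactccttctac
Fis1 downstream start, chr5:136961827-136962126, + strand: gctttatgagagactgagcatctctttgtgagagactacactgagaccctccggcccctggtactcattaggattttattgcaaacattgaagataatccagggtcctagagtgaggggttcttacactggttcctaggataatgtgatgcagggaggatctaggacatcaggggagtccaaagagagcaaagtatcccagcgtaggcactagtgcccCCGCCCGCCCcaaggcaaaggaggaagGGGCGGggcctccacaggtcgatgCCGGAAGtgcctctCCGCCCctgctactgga

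Opa1, which is known for extensive alternative splicing, had a mean length of 4738, 4918 and 4826 bases in ES libraries and 4609, 4629 and 4596 bases in XEN libraries. Its ES libraries spread by 89.9 bases (SD) and its XEN libraries by 16.7, and the difference was -216 bases. It lists 5 transcripts, of which 3 were added by the authors. The other 2 have GENCODE M21 counterparts of 3230 and 6230 bases. Which of the 5 differed in share cannot be computed from a mean length. Mff moved the other way, from 1721.98, 1718.82 and 1726.54 bases in ES to 1770.65, 1771.87 and 1774.06 bases in XEN libraries. The difference of 49.7 bases is many times the SD of 3.88 bases in ES and 1.73 in XEN libraries. Mff transcripts differ by start site as well as by splicing. Of those with a GENCODE M21 counterpart, the shortest, of 1358 bases, starts downstream of the others. Dnm1l, with 7 transcripts and no called change in its level, was shorter by 31.8 bases in XEN cells, at 4088 ± 3.18 and 4056 ± 2.99 bases. Its lengths did not overlap between the groups although its levels did. Mfn2, the mitofusin with 7 listed transcripts, had 4477 ± 1.13 and 4477 ± 1.06 bases (exact permutation p = 0.5), and the groups overlapped for Oma1 and Mtfr1 as well (exact permutation p = 0.2 for both). Which exons, start sites or transcript ends differ was not tested.

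**Figure D4:**
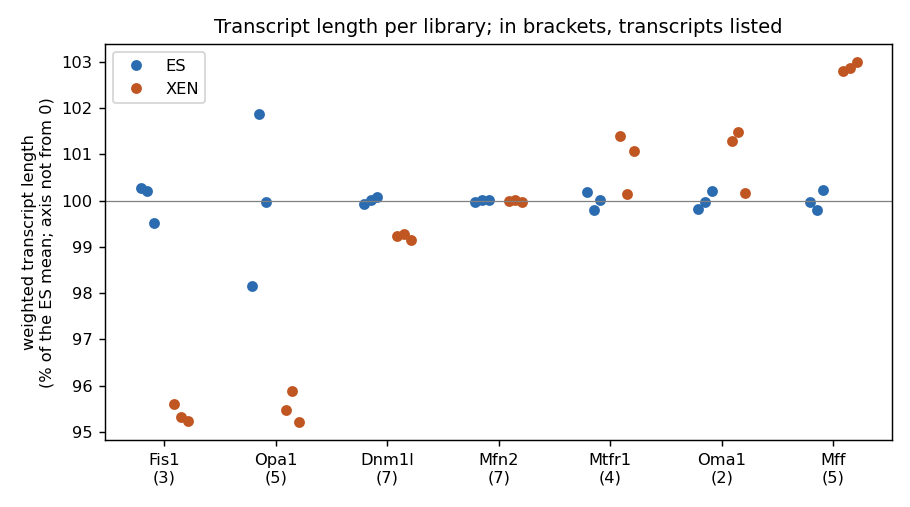
Deposited transcript length, read as weighted by abundance, in each library as a percentage of the ES mean (vertical axis, not from 0) for the 7 genes with several transcripts, with the number of transcripts in brackets. Fis1, Opa1 and Dnm1l lie lower and Mff lies higher in all XEN libraries (orange) than in all ES libraries (blue).

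The wider machinery was read from 6 further lists of 70 genes, of which 67 were tested, 29 rose, 29 fell and 9 were not called. These counts, and those of each list, are to be read against the 42.0% of all tested genes that were higher, the 46.7% that were lower and the 88.7% called in either direction. The share called in the 6 lists together is near that background. With upper-quartile factors 25 rose and 34 fell. The median log2 fold change was 0.01, beside -0.07 over all tested genes. Levels of these genes are in CPM, and all those named as rising or falling had an edgeR adjusted p from 1.15e-21 to 0.0025.

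Of 12 other genes of fusion and inner membrane processing, 5 rose and 7 fell. With upper-quartile factors 3 rose and 7 fell. Their median log2 fold change was -0.47. Mtch2, an outer membrane insertase, fell from 180 ± 6.07 to 72.2 ± 3 CPM and Miga1, mitoguardin 1, from 105 ± 0.824 to 51.0 ± 2.86 CPM. Spg7, a subunit of the m-AAA protease, rose from 33.7 ± 2.26 to 50.2 ± 3.96 CPM, and Slc25a46, an outer membrane carrier-like protein, from 35.2 ± 1.34 to 47.8 ± 1.31 CPM. Phb2, a prohibitin of the ring that scaffolds the inner membrane, was the most abundant of the list at 311 ± 5.95 and 313 ± 10.6 FPKM; its rise of 0.14 on the log2 scale turned to -0.01 with upper-quartile factors.

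Of 11 other fission genes 10 were tested, 7 rose and 2 fell, beside 42.0% higher and 46.7% lower over all tested genes. Their median log2 fold change was 0.49. Mtfr1l, the relative of Mtfr1, rose from 48.3 ± 1.74 to 186 ± 6.61 CPM while Mtfr1 itself fell from 122 ± 1.52 to 71.7 ± 4.56 CPM. The third gene of that family, Mtfr2, which was chosen after its values were seen, rose from 13.2 ± 0.716 to 23.4 ± 1.47 CPM. Inf2, a formin that builds actin at sites of division, rose from 9.96 ± 0.244 to 19.1 ± 1.35 CPM. Mief2, which encodes the DRP1 receptor MiD49, fell from 15.6 ± 0.509 to 8.31 ± 0.961 CPM, and Myo19, a myosin of the outer membrane, from 51.3 ± 0.817 to 39.1 ± 2.06 CPM. Mief1, which encodes the related receptor MiD51 and was also chosen after its values were seen, was not called, at 70.4 ± 4.95 and 74.3 ± 1.02 CPM (edgeR adjusted p = 0.139).

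Of 16 regulators of DRP1 and the mitofusins 15 were tested, 7 rose and 6 fell. Prkaa2, a catalytic subunit of AMP-activated kinase, rose from 41.5 ± 1.02 to 206 ± 16.9 CPM, the largest rise of the 6 lists, with a log2 fold change of 2.31 ± 0.07. Senp5, a SUMO protease that acts on DRP1, rose from 39.3 ± 1.45 to 109 ± 3.85 CPM. Akap1, which anchors protein kinase A to the outer membrane, fell from 213 ± 2.29 to 69.4 ± 2.08 CPM. March5, a ubiquitin ligase of the outer membrane and the most abundant of the list per length, rose slightly, from 135 ± 2.79 to 159 ± 1.69 CPM.

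Of 11 genes of the cristae complexes MICOS and SAM, 4 rose, 3 fell and 4 were not called, but 4 rose and 7 fell with upper-quartile factors. Immt, the core MICOS subunit mitofilin, was the most abundant at 128 ± 2.6 and 151 ± 2.46 FPKM. Chchd6 rose from 8.01 ± 0.822 to 18.6 ± 1.96 CPM, and Minos1, like Chchd6 a MICOS subunit, from 51.7 ± 0.881 to 97.3 ± 3.67 CPM. Apool, another subunit, fell from 25.9 ± 0.676 to 15.1 ± 1.48 CPM, and Samm50, the outer membrane assembly protein, from 167 ± 0.95 to 127 ± 5.49 CPM.

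Cardiolipin is the inner membrane lipid that OPA1 binds. Of 9 genes for its synthesis and remodelling 3 rose, 4 fell and 2 were not called. Plscr3, a phospholipid scramblase, rose from 19.5 ± 1.96 to 49.8 ± 2.30 CPM and Pgs1, an early enzyme of the pathway, from 30.7 ± 1.36 to 53.4 ± 1.96 CPM. Crls1, cardiolipin synthase, fell from 39.5 ± 2.78 to 25.5 ± 1.82 CPM, and the acyltransferase gene Lclat1 from 13.3 ± 0.678 to 4.87 ± 1 CPM. Prelid1, a lipid transfer protein, was the most abundant, at 244 ± 6.3 and 332 ± 10.4 FPKM.

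Of 11 genes for mitochondrial transport along microtubules 10 were tested, 3 rose and 7 fell, and the log2 fold changes had the widest range of the 6 lists. Armcx1, an X-linked outer membrane protein known from neurons, fell from 46.9 ± 2.53 to 0.349 ± 0.105 CPM, and the neuronal kinesin gene Kif5a from 62.3 ± 6.33 to 1.04 ± 0.198 CPM. Of the 4 neural marker genes, Tubb3 made up nearly all of the sum given above, which was higher in ES libraries. Among these 4, 1 was at 0 in all ES libraries and 0 were at 0 in all XEN libraries. The part of other cells in the differences of Armcx1 and Kif5a was not tested. Trak2, an adaptor between mitochondria and kinesin, rose from 36.6 ± 1.2 to 97.0 ± 5.84 CPM. Kif5b, the kinesin of most tissues, rose from 302 ± 5.36 to 410 ± 20.4 CPM. Armcx3, which was below the level for naming and was chosen after its values were seen, fell from 5.9 ± 0.763 CPM in ES libraries to 0, 1 and 1 counts in XEN libraries A, B and C.

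**Figure D5:**
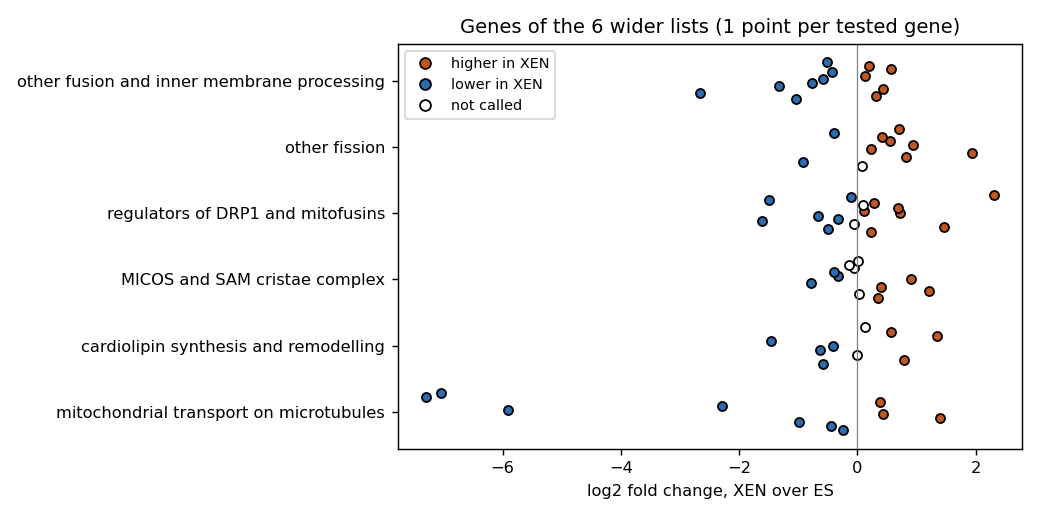
Log2 fold change of XEN over ES (horizontal axis) for the 67 tested genes of 6 lists, with genes called higher in orange, genes called lower in blue and genes not called in white. Genes lie on both sides of 0 in every list, and the transport genes Armcx3, Armcx1 and Kif5a lie below -5.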

How the data were processed

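Bowtie2, RSEM, DESeq2 and the mm9 build are named in the submitters' processing notes, without versions. The deposited tables, 1 per library, hold expected counts and, per the file headers, the authors' FPKM values and a transcript length per gene. The smallest FPKM listed is 0.01, and genes that a table leaves out were set to 0.

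Expected counts were rounded, kept by filterByExpr (13581 genes), scaled by TMM and tested with the robust quasi-likelihood test of edgeR 4.0.16 (R 4.3.3), with group as the only term, over all 6 libraries. The SE is that of the difference in mean log2 CPM, computed with a prior count of 2. Pair ratios and lengths were compared by exact permutation. Members, lists and tests were chosen with earlier results of these data known. From each wider list, the text names up to 2 called genes per direction with the largest change among genes averaging 5 CPM or more, plus the gene highest in FPKM; 1 gene that this names is not reported here.

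Alternatives were other factors, filters, tools (DESeq2 1.42.0, limma 3.58.1 on counts or on log2(FPKM + 1) and log2(FPKM + 0.1)), a replicate block, a 2-fold threshold and leaving out each library. On data simulated for this comparison (13581 genes), edgeR recovered 23 of 50 genes given a 1.2-fold change. Given 1.5-fold and 2-fold changes, it recovered 45 of 50 and 50 of 50, and it called 6 of 13381 unchanged genes. Few genes were changed in the simulation, as many up as down, with a fixed dispersion. In the data 88.7% of tested genes were called, so these rates need not hold for them. No pair of libraries within a group was alike within sampling noise (chi-square over its degrees of freedom at least 2.45).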

Additional observations from a re-analysis of the deposited data

How the results depend on the processing

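The counts of 3 genes higher and 4 lower among the fusion and fission genes, and of 29 and 29 in the wider lists, stayed within 1.5 times under all alternatives except the test against 2-fold, which called 0 and 0 of the former and 6 and 9 of the latter. Upper-quartile factors and no composition factors moved the median log2 fold change of all genes by -0.147 and -0.133, and both gave 3 higher and 6 lower fusion and fission genes. The Dnm1l log2 fold change turned from 0.05 to -0.10 and -0.088 in these 2 settings, to -0.074 on the log2(FPKM + 1) scale with and without the filter, and to -0.075 on the log2(FPKM + 0.1) scale. The Phb2 log2 fold change turned to -0.011 with upper-quartile factors. Leaving out each library gave 3 higher and 4 to 5 lower fusion and fission genes, and 27 to 30 and 28 to 30 in the wider lists. No direction of the 4 pair ratios or 7 lengths reversed under their alternatives. With the replicate letter as a replicate block 3 genes were higher and 4 lower, and it changed no call among the 9 genes. Libraries of the same letter did not deviate together (correlations 0.002, -0.021 and 0.062), and not every library correlated best with its own letter. No pairing by letter was seen, but these correlations alone cannot show whether the libraries were paired by design. Each of the 7 called genes kept its call under 17 of 18 alternatives, all but the test against 2-fold. Gdap1, with 0 to 9 counts per library, was too low to be tested in the main fit and was not called in the fit without a filter.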
